A study of Homo sapiens with 5 samples.

Results

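Nucleolar ribosome biogenesis genes were examined in LNCaP cells after celastrol. The set was a named list of 45 genes: MYC, subunits and cofactors of RNA polymerase I, nucleolar phosphoproteins, snoRNP proteins, rRNA modifying enzymes, and assembly factors of the small and large ribosomal subunits. A probe set that names the gene alone was found for 41 of the 45, out of 12165 genes on the array. GNL3, NOP58, EBNA1BP2 and DDX18 were not analysed here. Where several probe sets name a gene, the one of highest mean stands for it, and all 41 were among the 8108 genes kept by a filter on dim probe sets.

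LNCaP is an established, androgen-responsive human prostate cancer cell line. Growing cells received celastrol at 1.25 µM for 6 h, with 2 arrays labelled as biological replicates. Celastrol is a triterpenoid from thunder god vine. Controls received the solvent DMSO for 6 h, with 3 arrays. By their labels all cells shared one line and one serum-containing medium, so the 4 arrays compared speak of this line alone. Levels are log2(intensity + 1), and a change is the celastrol mean minus the mean of DMSO replicates 1 and 2 on that scale. RNA came from whole cultures, so fewer cells expressing a gene and less RNA per cell cannot be told apart.

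The array labelled DMSO replicate 3 was kept out of the comparison because its profile was not LNCaP-like. It correlated with the other arrays at r = 0.843 to 0.844 over probe sets, against 0.994 to 0.998 among the other 4. The median level of 10 measured luminal prostate markers was 4.56 on it and 9.59 to 9.67 elsewhere. For 12 leukocyte markers the median was 8.10 on it and 4.21 to 4.30 elsewhere. On the 4 compared arrays the summed intensity of the luminal markers was 13999 and 13602 with celastrol and 14493 and 14780 with DMSO. Single markers moved more than the sum. Of 9 tested, 7 had both celastrol arrays below both DMSO arrays, or 77.8% against 26.5% of all genes tested. Both celastrol arrays were above for 2, or 22.2% against 16.4%. Their changes ran from -1.08 to 0.27, and 1 was lower at a limma adjusted p of 0.0369. The sum for leukocyte markers was 227 to 230 with celastrol and 227 to 229 with DMSO, and for 12 fibroblast and endothelial markers 368 to 374 and 365 to 371.

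Ribosomes are built in the nucleolus, where RNA polymerase I transcribes the long pre-rRNA. Small nucleolar ribonucleoproteins (snoRNPs) guide its methylation and pseudouridylation, and large particles of assembly factors fold and cut it into the RNAs of the small 40S and large 60S subunits. MYC is a transcription factor known to raise the expression of many of these factors, and the pathway is among the most active in growing cancer cells.

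After 6 h of celastrol the nucleolar genes stood close to their DMSO levels. Their median change was -0.05, against -0.02 over all genes tested, and their changes ran from -0.43 for REXO4 to 0.29 for UTP14A. None of the 41 passed the limma test at a Benjamini-Hochberg adjusted p of 0.05. The smallest adjusted p among them was 0.0868, and 12 of the 41 had an unadjusted limma p under 0.05. Over all genes tested, 1.06% passed the adjusted test, so 0 of 41 is near the background. The 95% interval of every one of the 41 changes lay inside 2-fold in either direction, as did those of 7917 of the 8108 genes tested. That of 36 of the 41 lay between -0.5 and 0.5, against 6407 of the 8108. A change under 0.1 in size was found for 53.7% of the 41 and 52.3% of all genes tested, so this closeness is not particular to them. Among the 41 the lowest bound was -0.61, for REXO4, and the highest 0.41, for WDR12. Some of the 41 were dim, such as POLR1B and NIP7, and the intervals do not allow for changes understated near background.

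Small differences were found on both sides. An unadjusted limma p under 0.05 was reached by 7 genes on the lower side, REXO4, PWP2, RRS1, BYSL, DKC1, PES1 and POLR1C. That is 17.1% of the 41, where 12.4% of all genes tested did so. On the higher side 5 reached it, UTP14A, UTP3, NOL7, GNL2 and RRP9, or 12.2% against 7.7% of all genes. Under quantile normalization these counts became 5 lower and 6 higher, against 10.9% and 9.32% of all genes. Under median centring they were 6 and 6, against 10.9% and 9.04%. Both celastrol arrays lay below both DMSO arrays for 14 of the 41, against 26.5% of all genes. They lay above both for 7, against 16.4%. With quantile normalization the members' counts were 14 and 8, while the shares of all genes became 25.5% and 30.7%. A change below 0 was found for 29 of the 41, against 56% of all genes, and a change of -0.25 or lower for 6, against 9.48%. With 2 arrays against 2 an exact two-sided permutation test of a single gene cannot go below p = 0.333.

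**Figure D1:**
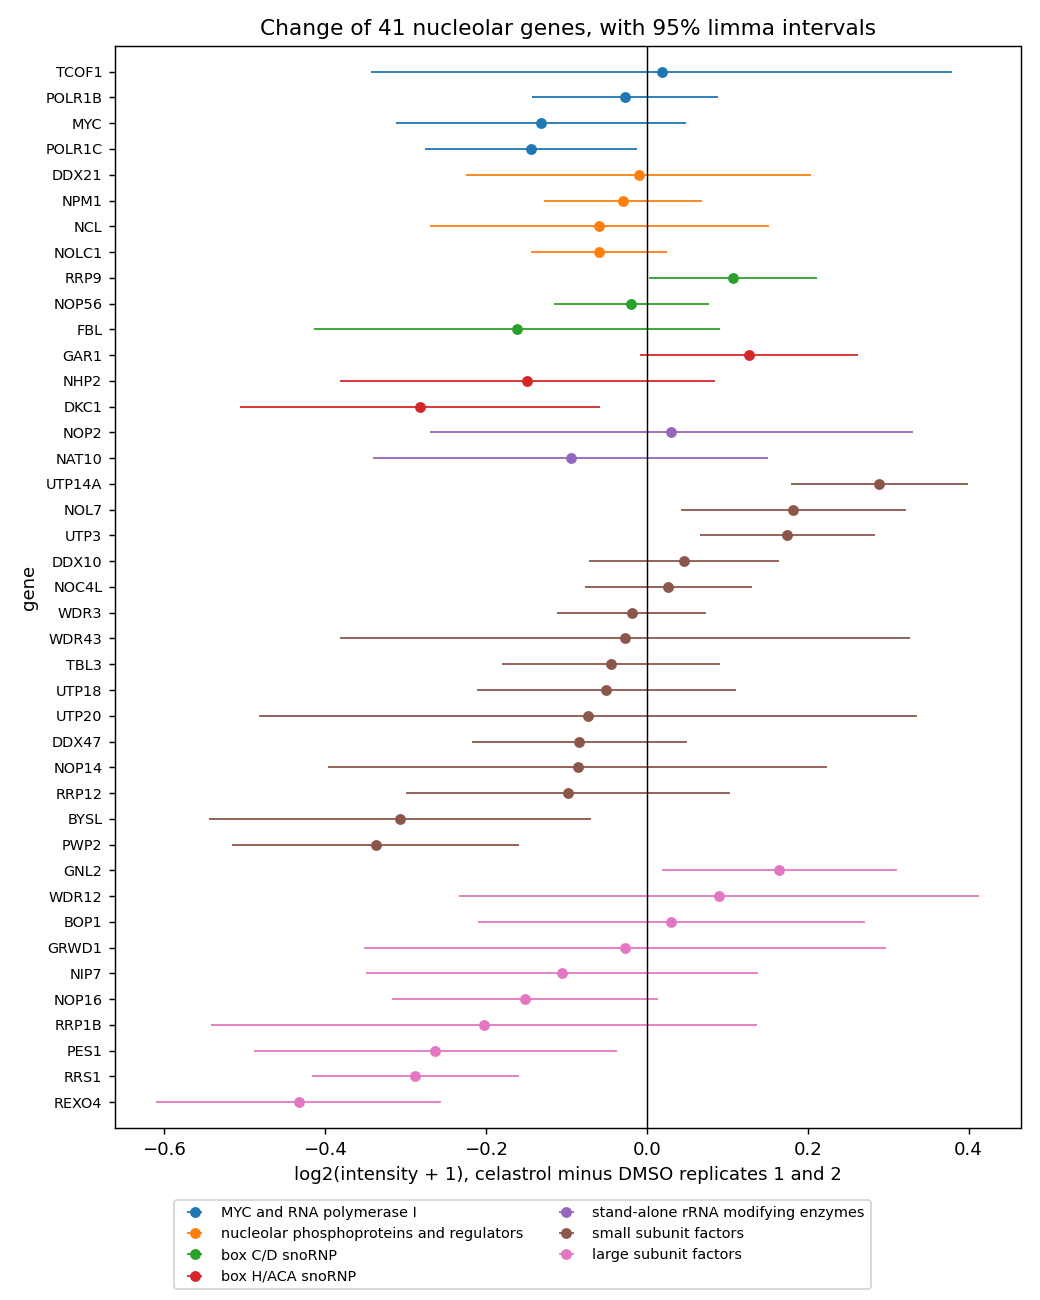
Change of each of the 41 genes (points) on the log2(intensity + 1) scale, celastrol minus the mean of DMSO replicates 1 and 2, with 95% limma intervals (bars), coloured by role. All bars lie within 1 log2 unit of 0, REXO4 is lowest at -0.43 and UTP14A highest at 0.29.

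MYC, the transcription factor placed at the head of this pathway, read 9.96 and 10.03 on the celastrol arrays and 10.07 and 10.19 on the DMSO arrays. Both celastrol arrays were thus just below both DMSO arrays. The change was -0.13 (SE 0.0583, 95% interval -0.31 to 0.05), with a limma adjusted p of 0.388. POLR1B, the second largest subunit of RNA polymerase I, read 4.74 on both celastrol arrays and 4.73 and 4.80 on DMSO, so the groups overlapped. Its change was -0.03 (SE 0.0373). The level of POLR1B is near the 4.41 to 4.50 medians of fibroblast and endothelial markers on these arrays, where changes can be understated. POLR1C, a subunit shared by RNA polymerases I and III, was lower by a change of -0.14, its celastrol arrays at 7.30 and 7.37 lying below 7.50 and 7.46 (limma adjusted p = 0.239). A second POLR1C probe set had a change of -0.01. TCOF1, the treacle protein that aids pre-rRNA transcription, had a change of 0.02, with an interval from -0.34 to 0.38, and its other probe set one of -0.07.

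The nucleolar phosphoproteins lay close to 0. NPM1, the nucleolar chaperone nucleophosmin, read 12.06 and 12.02 with celastrol and 12.06 and 12.08 with DMSO. Its change was -0.03 (SE 0.0319, 95% interval -0.13 to 0.07), and its other probe sets had changes of 0.02 and 0.00. NCL, nucleolin, read 10.88 and 10.93 against 10.89 and 11.04, with overlapping groups and a change of -0.06 (SE 0.0682). NOLC1, a phosphoprotein that binds snoRNPs, read 8.89 and 8.91 against 8.96 on both DMSO arrays. The groups did not overlap, and the change was -0.06 (SE 0.0273, limma adjusted p = 0.407). Its other probe sets had changes of -0.16 and -0.08. DDX21, an RNA helicase of rRNA synthesis and processing, had a change of -0.01, with an interval from -0.22 to 0.20.

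Box C/D snoRNPs carry the methylation guides, and 3 of their proteins were measured. FBL, the methyltransferase fibrillarin, read 10.15 and 9.96 with celastrol and 10.24 and 10.18 with DMSO. Both celastrol arrays were lower, the change being -0.16 (SE 0.0815, limma adjusted p = 0.450) and running from -0.25 to -0.07 with 1 array left out. NOP56, a core scaffold protein of these particles, read 9.44 and 9.40 against 9.44 and 9.44, a change of -0.02 (SE 0.0311). Its other probe set had a change of 0.12 (SE 0.0447), so the sign of NOP56 depends on the probe set. RRP9, a protein of the U3 snoRNP, read 5.37 and 5.32 against 5.23 on both DMSO arrays. It was higher by 0.11 (SE 0.0337, limma adjusted p = 0.257). Differences between the 3 proteins were not tested.

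Box H/ACA snoRNPs carry the pseudouridylation guides. DKC1, the pseudouridine synthase dyskerin, read 8.86 and 8.74 with celastrol and 9.02 and 9.14 with DMSO. The 2 groups were apart, with a change of -0.28 (SE 0.0725, limma adjusted p = 0.200). The other DKC1 probe sets had changes of -0.29 and -0.16, on the same side (limma adjusted p = 0.336 and 0.163). NHP2, an RNA-binding protein of the same particle, read 10.93 and 10.77 against 10.96 and 11.03, a change of -0.15 (SE 0.0755, limma adjusted p = 0.451). With 1 array left out the NHP2 change ran from -0.23 to -0.07. GAR1, also a subunit of that particle, lay on the other side, at 7.21 and 7.15 against 7.09 and 7.02. Its change was 0.13 (SE 0.0439, limma adjusted p = 0.288). The difference between GAR1 and its partners was not tested. The stand-alone enzymes NOP2, an rRNA cytosine methyltransferase, and NAT10, an RNA acetyltransferase, had changes of 0.03 and -0.09 with overlapping groups.

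Of 15 small subunit factors, 2 were on the lower and 3 on the higher side at an unadjusted p under 0.05, or 13.3% and 20%. The shares of all genes tested were 12.4% and 7.7%. The median change of the 15 was -0.04. PWP2, a WD-repeat protein of the UTP-B complex, which binds the early pre-rRNA, read 6.10 and 6.17 with celastrol and 6.42 and 6.53 with DMSO. Its change was -0.34 (SE 0.0578, 95% interval -0.52 to -0.16, limma adjusted p = 0.124). The other UTP-B proteins on the list stayed nearer to 0, with changes of -0.04 for TBL3, -0.02 for WDR3 and -0.05 for UTP18, all with overlapping groups. BYSL, bystin, a late 40S assembly factor, read 6.21 and 6.08 against 6.39 and 6.52. The groups were apart and the change was -0.31 (SE 0.0768, limma adjusted p = 0.192).

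UTP14A, a small subunit processome protein, was the gene with the highest change of the whole set. It read 6.22 and 6.28 with celastrol and 5.95 and 5.98 with DMSO. Its change of 0.29 (SE 0.0356, 95% interval 0.18 to 0.40) had the smallest adjusted p of the 41, at 0.0868 by limma, and a fold of 1.22. Its second, dimmer probe set was left out by the filter and had a change of 0.06. UTP3, another processome protein, read 9.22 and 9.19 against 9.00 and 9.06, higher by 0.17 (SE 0.0352, limma adjusted p = 0.149). NOL7, a nucleolar protein of the same particle, read 10.19 and 10.10 against 9.95 and 9.98, higher by 0.18 (SE 0.0453, limma adjusted p = 0.190). Its other probe sets had changes of 0.17, 0.12 and 0.02. The chosen NOL7 probe set carries the suffix by which the manufacturer marks possible cross-hybridisation, as does that of POLR1B. The remaining 7, NOP14, UTP20, WDR43, RRP12, NOC4L, DDX10 and DDX47, lay between -0.10 for RRP12 and 0.05 for DDX10, and of these DDX47 was apart on the lower and DDX10 on the higher side.

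The 10 measured large subunit factors had a median change of -0.13, with 3 on the lower and 1 on the higher side at an unadjusted p under 0.05. That is 30% and 10%, against 12.4% and 7.7% of all genes tested. REXO4, a protein with an exonuclease domain, read 5.31 and 5.20 with celastrol and 5.65 and 5.72 with DMSO. Both celastrol arrays were below both DMSO arrays, and the change was -0.43 (SE 0.0573, 95% interval -0.61 to -0.26), a fold of 0.741. Its limma adjusted p was 0.0947, and 238 of the 8108 genes had lower changes. RRS1, which helps to bring the 5S particle into the pre-60S, read 7.61 and 7.56 against 7.84 and 7.91. The groups were apart, with a change of -0.29 (SE 0.0416, limma adjusted p = 0.103).

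PES1, BOP1 and WDR12 form the PeBoW complex, which acts in 60S maturation. PES1 read 6.63 and 6.65 with celastrol and 6.99 and 6.82 with DMSO, a change of -0.26 (SE 0.0730, limma adjusted p = 0.221). BOP1 had a change of 0.03 (95% interval -0.21 to 0.27) and WDR12 of 0.09 (95% interval -0.23 to 0.41), both with overlapping groups. A second BOP1 probe set had a change of -0.11, and the sign turned in 4 alternatives for BOP1 and in 2 for WDR12, so neither has a settled direction. Differences between the 3 were not tested. RRP1B, a nucleolar rRNA processing protein, read 7.44 and 7.34 against 7.72 and 7.47, a change of -0.20 (SE 0.110), but its second probe set had a change of 0.03. With 1 array left out the RRP1B change ran from -0.33 to -0.08. NOP16, a pre-60S protein, read 7.80 and 7.69 against 7.90 on both DMSO arrays, a change of -0.15 (SE 0.0534, limma adjusted p = 0.296), while its other probe sets had changes of -0.09 and 0.04. GNL2, a nucleolar GTPase of 60S assembly, was the large subunit factor on the higher side, at 8.07 and 8.02 against 7.92 and 7.83, a change of 0.16 (SE 0.0472, limma adjusted p = 0.230). NIP7 and GRWD1 had changes of -0.10 and -0.03 with overlapping groups.

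**Figure D2:**
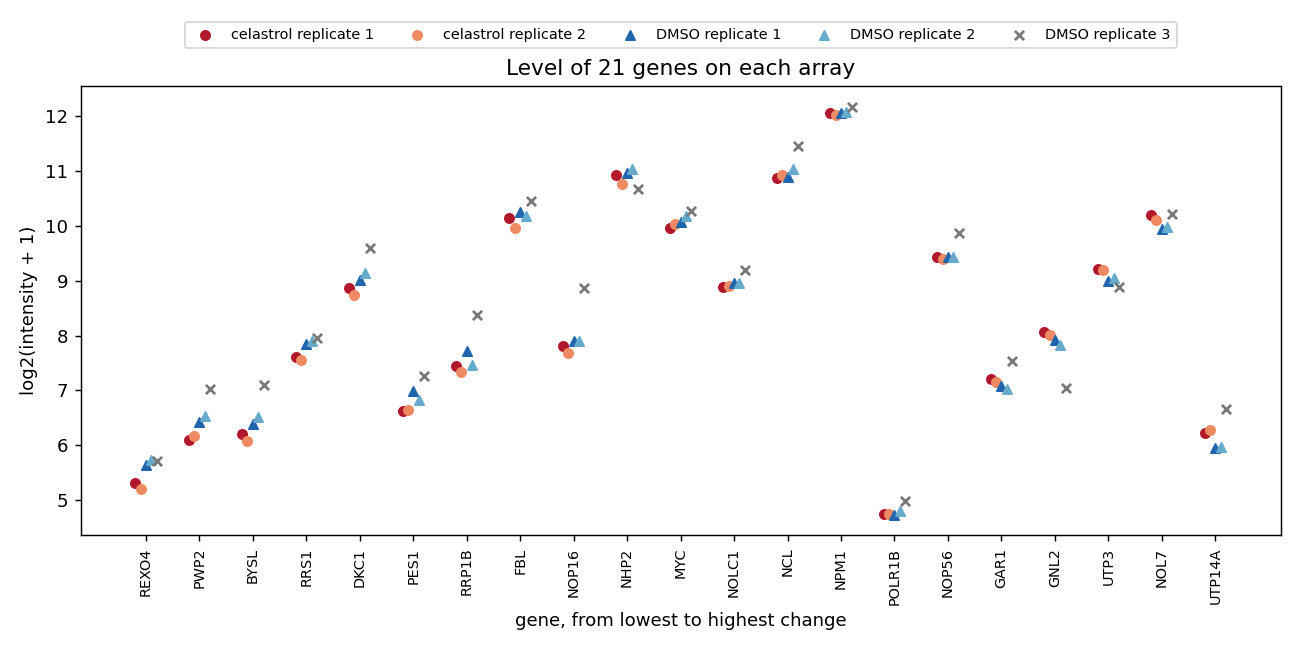
Level of 21 genes, log2(intensity + 1), on each of the 5 arrays, ordered from the lowest change (REXO4) to the highest (UTP14A). Celastrol arrays are circles, DMSO replicates 1 and 2 triangles and DMSO replicate 3 crosses. The circles and triangles of a gene lie close together, while the crosses often lie above them.

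The E-box, a promoter feature that the choice of genes did not use, was found at genes on both sides. MYC binds, with its partner MAX, this element, whose letters are CACGTG, a hexamer that reads the same on both strands. RefSeq promoter windows (GRCh38.p14) of 300 bases, reaching from 250 bases before to just past each gene's start, were matched by symbol for 34 of the 41 genes. The hexamer was in 16 of their 39 windows, or 41%, against 7.26% of 35116 windows of the same length and 9.54% of the windows of genes tested. Counted by gene, 16 of 34 held it, 47.1%, against 13.3% of the genes tested that have a window. Of the 17 sites, 14 lay within 50 bases of the gene's start. Past the start the window reaches only 50 bases, so the 10 sites that began there could lie no farther off. The other sites began before the start, and 3 of them lay farther than 50 bases from it. The sites of the genes with groups apart are shown with up to 12 bases on either side, 5′ to 3′, the hexamer in capitals. First come those on the lower side.
PWP2, chr21:44107388-44107417, plus strand: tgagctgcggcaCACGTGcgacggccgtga
BYSL, chr6:41921515-41921544, plus strand: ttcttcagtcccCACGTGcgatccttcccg
PES1, chr22:30591880-30591909, minus strand: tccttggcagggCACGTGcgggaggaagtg
FBL, chr19:39846356-39846385, minus strand: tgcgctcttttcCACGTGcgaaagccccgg
Then come those on the higher side.
UTP14A, chrX:129905914-129905940, plus strand: accttgggcCACGTGgaaaccaggggc
NOL7, chr6:13615174-13615203, plus strand: gcctgcgctggcCACGTGgaaagaaacacg
GNL2, chr1:37595917-37595946, minus strand: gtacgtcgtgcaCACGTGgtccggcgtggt
GAR1, chr4:109815781-109815810, plus strand: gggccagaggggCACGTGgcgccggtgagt
RRP9, chr3:51941892-51941921, minus strand: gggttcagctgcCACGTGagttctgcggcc

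The hexamer stood at genes of either direction. The 16 genes that held it had a median change of -0.04, ranging from -0.34 for PWP2 to 0.29 for UTP14A, with 4 apart on the lower and 5 on the higher side. The 18 genes without it in the window also had a median of -0.04, ranging from -0.43 for REXO4 to 0.17 for UTP3, with 6 apart on the lower and 2 on the higher side. No window was matched for MYC, NOLC1, RRS1, RRP1B, TCOF1, RRP12 and BOP1. Of these MYC, NOLC1, RRS1 and RRP1B were apart on the lower side and the others overlapped. The counts by direction thus leave out genes apart on the lower side only. Among genes with a window, the largest differences on the lower side without the hexamer were those of REXO4 and DKC1. Their 250 bases before the start, for REXO4 the most upstream start, are shown for contrast.
REXO4, chr9:133418173-133418422, minus strand: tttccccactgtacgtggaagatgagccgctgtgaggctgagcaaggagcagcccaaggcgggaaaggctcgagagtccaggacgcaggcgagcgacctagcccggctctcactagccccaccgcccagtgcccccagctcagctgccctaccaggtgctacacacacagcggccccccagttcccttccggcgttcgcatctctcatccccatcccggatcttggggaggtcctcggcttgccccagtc
DKC1, chrX:154762614-154762863, plus strand: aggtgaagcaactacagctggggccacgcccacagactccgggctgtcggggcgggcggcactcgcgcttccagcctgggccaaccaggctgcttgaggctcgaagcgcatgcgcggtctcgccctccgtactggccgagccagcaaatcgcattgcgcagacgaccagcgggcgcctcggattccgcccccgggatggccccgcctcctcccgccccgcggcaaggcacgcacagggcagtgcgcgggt
Both stretches are rich in G and C, at 65.6% for REXO4 and 72.0% for DKC1. Celastrol is known to activate the heat shock factor HSF1, so 2 spellings of its element were also searched, each of which reads the same on both strands. TTCNNGAA was in 4 of the 39 windows, 10.3% against 7.74% of all windows and 6.47% of those of genes tested. GAANNTTC was in 1, 2.56% against 6.77% and 5.03%. TATAAA, searched on both strands, was in 2, 5.13% against 11.5% and 6.36%. A match of letters is a description of the sequence and not evidence of binding.

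Other genes of the pathway were taken from lists drawn up by function. Of 14 further genes of pre-rRNA transcription, 5 were lower and 0 higher at an unadjusted p under 0.05, and 0 passed the adjusted limma test. The 5 are 35.7% of the list, where 12.4% of all genes were lower, and 64.3% of the list had both celastrol arrays below both DMSO arrays, against 26.5%. Their median change was -0.10, and POLR1E, a further polymerase I subunit, was lowest at -0.48 (limma adjusted p = 0.114). The list includes POLR2E, POLR2F, POLR2H, POLR2K and POLR2L, subunits that RNA polymerases I, II and III share. Of these, POLR2E and POLR2H were among the 5 lower, so the share is not of polymerase I genes alone. Of 28 further genes listed as small subunit factors 3 were lower and 3 higher, with a median of -0.05. DHX8, a splicing helicase and not a small subunit factor, is counted among them. For 39 further large subunit factors the counts were 2 and 1, with a median of -0.02. Of 9 further snoRNP and assembly genes 1 was lower, ZNHIT3, and the median was -0.06. The exosome and RNase MRP, which trim and cut the pre-rRNA, gave 1 lower and 1 higher of 19, with a median of 0.00. In these 5 lists together 0 of 108 genes passed the adjusted limma test. An unadjusted p under 0.05 was found for 12 of the 108 on the lower side, or 11.1%, against 12.4% of all genes tested. On the higher side it was found for 5, or 4.63%, against 7.7%.

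The products that these factors help to assemble, the cytosolic ribosomal proteins, lay close to 0. The median change of 63 was -0.02, from -0.21 to 0.32. At an unadjusted p under 0.05, 1 was lower, or 1.59% against 12.4% of all genes, and 0 were higher, against 7.7%. Among 13 partners and antagonists of MYC, 4 were lower and 1 higher at that level, the lower ones being 30.8% of the list against 12.4% of all genes. The lower ones were the antagonists MXI1 and MXD4, with changes of -0.17 and -0.23, and MYCBP and MYCBP2, with -0.39 and -0.51. They did not pass the adjusted limma test. The higher one was MNT, which encodes a repressor that competes with MYC for MAX. MNT read 7.25 on both celastrol arrays and 6.55 and 6.68 on DMSO, a change of 0.63 (SE 0.0600), without passing the adjusted test (limma adjusted p = 0.0677).

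**Figure D3:**
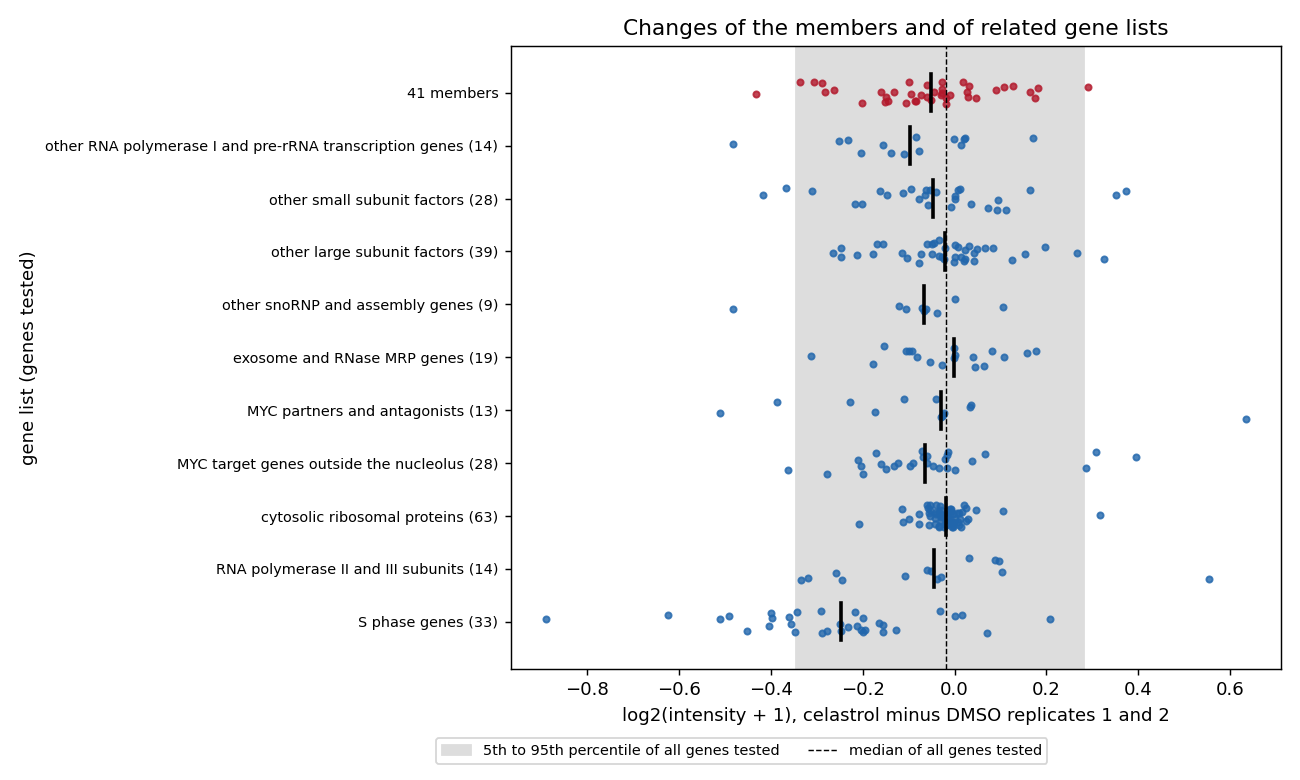
Changes on the log2(intensity + 1) scale, celastrol minus DMSO replicates 1 and 2, of the 41 genes (red) and of genes in related lists (blue), each point 1 gene and each black bar the list's median. The grey band holds the middle 90% of all 8108 genes tested, from -0.35 to 0.28; the median of the 41 genes, -0.05, lies near the dashed median of all genes, and S phase genes lie lowest at -0.25.

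The array labelled DMSO replicate 3 carried more signal for most of the 41 genes. On it 33 of them, 80.5%, lay above all 4 other arrays, against 33.7% of all genes tested. At least 2-fold above the mean of DMSO replicates 1 and 2 were 3 genes, TCOF1, BOP1 and NOP14, against 11.8% of all genes, and 0 were as far below. TCOF1 read 7.00 on it, a difference of 1.78 from that mean. MYC read 10.27, a difference of 0.14, NCL 11.46, one of 0.50, and FBL 10.45, one of 0.23. REXO4 read 5.70, close to the 5.65 and 5.72 of the other DMSO arrays. GNL2 was on the opposite side, at 7.04, 0.83 below their mean. Had this array been counted as a control, the median change of the 41 genes would have been -0.23, with 35 of them below 0, but 0 would have passed the adjusted limma test. For 35 of the 41 genes, or 85.4%, its distance from the mean of the other DMSO arrays was larger than the change with celastrol, against 82.2% of all genes tested.

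**Figure D4:**
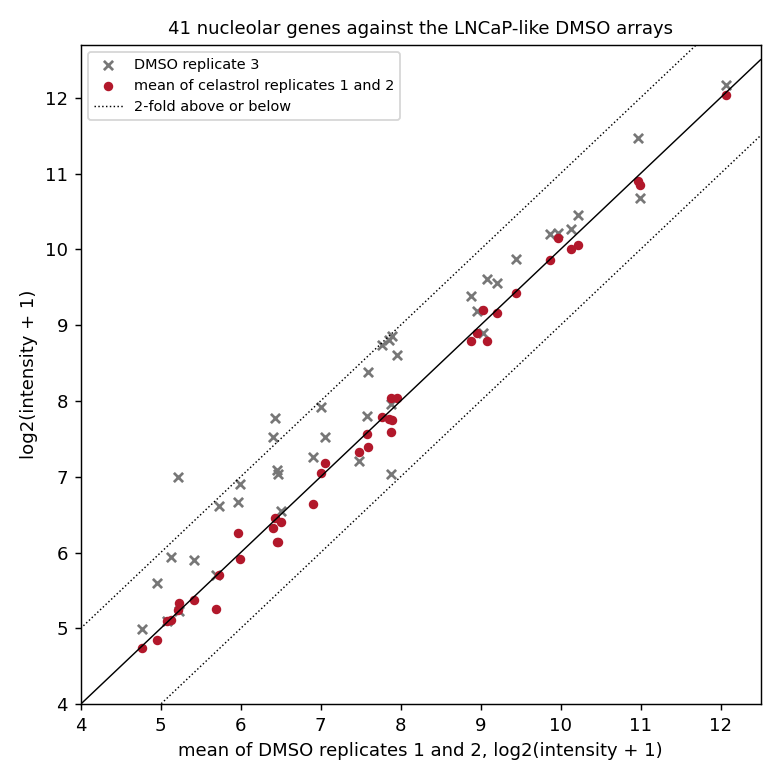
Level of each of the 41 genes on DMSO replicate 3 (grey crosses) and its mean on the 2 celastrol arrays (red points) against its mean on DMSO replicates 1 and 2, all as log2(intensity + 1). The solid line marks equal levels and the dotted lines 2-fold differences; red points follow the solid line, and 33 of the 41 crosses stand above every other array.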

How the data were processed

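RNA of LNCaP cells was labelled as biotinylated cRNA for Affymetrix arrays, per the labels. The authors deposited linear intensities summarised by probe set; RMA is the method given in the submitters' processing notes, and its version is not given in the sources used here. Of 22215 probe sets, 19724 name 1 gene. Values were taken as log2(value + 1). The dimmest 40% of probe sets, by mean level on the 5 arrays, were left out, which kept 13329. R 4.3.3 and limma 3.58.1 (lmFit, eBayes) compared 2 celastrol arrays with DMSO replicates 1 and 2, two-sided. Benjamini-Hochberg adjustment ran over all probe sets tested, at 0.05. The fit was tested on simulated data. The number of arrays limits precision. The deposited values held ties between arrays: 9 of the 41 genes had tied values within a group, against 2366 of the 8108 genes tested. Replicate numbers paired no arrays, and the replicate differences of the 2 groups correlated at r = -0.0131.

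The members and lists were chosen with earlier results of these data known. The filter was taken from an earlier account of these data, where it was chosen after counts had been seen. Values on each array are given for the 10 lowest and 5 highest changes among genes with groups apart, and for MYC, NCL, NPM1, FBL, NOLC1, POLR1B and NOP56. POLR1C and RRP9 were added after their values were seen, as were MNT, POLR1E, ZNHIT3 and the printed sites of genes on the higher side. So were MXI1, MXD4, MYCBP, MYCBP2, POLR2E and POLR2H. Alternatives covered filters, pseudocount, normalization, variance model, probe set choice, replicate block and leaving out each array.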

Additional observations from a re-analysis of the deposited data

How the results depend on the processing

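Under each of 15 alternatives 0 of the 41 genes passed the adjusted limma test; their smallest adjusted p was 0.0545, for REXO4 with quantile normalization. The count over all genes, 86, was 2 with no filter, 272 with quantile normalization, 194 with median centring, 161 with the mean of a gene's probe sets, and 0 with all 5 arrays, with the replicate block and with any 1 of the 4 arrays left out (0 to 0). The members' counts at an unadjusted limma p under 0.05, 7 lower and 5 higher, became 2 and 0 with all 5 arrays. The shares of all genes were then 1.27% and 1.84%. With the replicate block the members' counts became 3 and 2, against 10.3% and 6.38% of all genes, though the numbers do not pair the arrays. The members' counts at this level are not given with 1 array left out, as a group then holds a lone array. Members with groups apart, 14 lower and 7 higher, became 15 to 22 and 7 to 11 with 1 array left out. There 1 array against 2 is apart more easily. The shares of all genes apart were then 35.61% to 39.99% lower and 24.59% to 28.9% higher. With all 5 arrays, 12 members were apart on the lower and 3 on the higher side, against 10.5% and 11.1% of all genes. The members' median change was -0.23 with all 5 arrays and -0.07 to -0.04 with 1 left out.

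The sign held under all alternatives for 23 of the 41; NOC4L and TBL3 came to 0 with 1 array left out, and the rest turned in at least 1. GAR1 turned to -0.032 with all 5 arrays. NOP56 turned to 0.0019 with median centring and 0.050 with the mean of its probe sets. With 1 array left out NOP56 ran from -0.040 to 0.0020, NCL from -0.13 to 0.016 and POLR1B from -0.060 to 0.0063. The cause was not tested. With 1 array left out a group holds a lone array, assumed to vary like the others.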

Other observations

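Further lists held genes of processes near the nucleolus. Among 28 MYC target genes outside the nucleolus, 7 were lower and 3 higher at an unadjusted limma p under 0.05, or 25% and 10.7%, against 12.4% and 7.7% of all genes tested, and 0 passed the adjusted test. TFRC, the transferrin receptor, was lower on both celastrol arrays, with a change of -0.36 (limma adjusted p = 0.0601). The 3 higher were HSPE1 and HSPD1, the mitochondrial chaperonins, at 0.39 and 0.28, and SHMT2, a mitochondrial serine enzyme, at 0.31. Of 14 subunits of RNA polymerases II and III, 2 were lower and 1 higher, or 14.3% and 7.14%, near the shares of all genes tested. The higher one was POLR3G, an RNA polymerase III subunit, which read 5.87 and 5.73 with celastrol and 5.25 and 5.24 with DMSO (change 0.55, limma adjusted p = 0.0763). These genes were named after their values were seen.

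S phase genes had a lower median than the nucleolar genes on the same arrays. Of 33, 18 were lower and 0 higher at an unadjusted limma p under 0.05, or 54.5% and 0%. The shares of all genes tested were 12.4% and 7.7%. The S phase genes had a median change of -0.25, and 0 passed the adjusted test. Their part in the values of the nucleolar genes was not tested.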
